A study of Mus musculus with 12 samples.

Results

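Polyadenylation sites (PASs) that lie inside introns, in the stretch more than 5000 and at most 50000 nt upstream of the terminal exon's first PAS, and that end a composite terminal exon, were described across the genes of mouse hippocampal slices. An entry was a member when the authors' region label was intron_Comp, when its gene lay on 1 chromosome and 1 strand, and when its distance upstream of the first PAS labelled exon3, measured along the gene's strand, fell within these limits. Of 56204 listed entries in 16627 genes, 6043 entries in 3074 genes were members, at 6039 distinct sites. They made up 53.5% (95% Wilson interval 52.6 to 54.4) of the 11301 composite intronic PASs that lay upstream of a first exon3 PAS. The near class, at most 5000 nt upstream, held 2114 (18.7%), and the far class, over 50000 nt upstream, held 3144 (27.8%). Members were found in 20.4% (19.8 to 21.0) of the 15071 genes with an exon3 PAS. All intervals given here are Wilson intervals that cover counting error only, and the values are descriptions with no test between samples. Intervals over sites treat the sites as independent, although most members share their gene with others, and do not allow for this.

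The list of sites came from 3′READS, a method that captures and sequences the ends of polyadenylated transcripts. The 12 samples were acute hippocampal slices with the dentate gyrus trimmed away, from C57BL/6 wild-type mice labelled 3 months old. Chemical long-term potentiation (cLTP) was induced with 50 uM forskolin alone for 5 min and then for a further 5 min together with 30 mM KCl and 10 mM Ca2+. Control slices received 0.2% DMSO for 10 min, and slices of the same animal were divided between treatment and control. Tissue was collected 1 hr or 3 hr later, which gave 4 groups of 3 samples. The site list is a single list for all 12 samples. Its 12 columns of read counts carry names that match no sample label, so they were not assigned to samples and are not used here. A site with few reads therefore weighs as much as a site with many, whether usage of the members differed between cLTP and control slices was not analysed here, and the depth behind each site is not given. The study reported fewer PASs in fewer genes than this list holds, and fewer intronic PASs than there are members here. These counts rest on different sets of samples. The study counted intronic PASs per sample group and left out an outlier 3′READS sample, whereas this list covers all 12 samples. The study's total of PASs and genes equals the count that its read statistics give for a single sample. Those read statistics count PASs above cutoffs of read number and relative abundance. No such cutoff was applied here, so members may include sites below it. All 25 defining markers checked for neurons, astrocytes, oligodendrocytes and microglia were in the list, which therefore holds genes of glia beside those of neurons.

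As background, an intron can hold a usable poly(A) signal that is reached by RNA polymerase before the intron is removed. In a composite terminal exon, the 5′ splice site is not used and the upstream exon runs on into the intron up to the PAS. In a skipped terminal exon, the transcript instead splices into a separate exon inside the intron and ends there. Both kinds cut the transcript short, usually with loss of the end of the coding sequence, and U1 snRNP, the particle that recognises 5′ splice sites, is known for holding premature intronic cleavage in check. The meaning of the labels was taken from their names: intron_Comp for composite and intron_Skip for skipped terminal exons, exon3 for the terminal exon, exon3ext for sites beyond the annotated end, exonI for internal exons, exon5 for first exons and UA for upstream antisense sites. Positions refer to mouse build mm9. The intron boundaries of that build are not used here, so the intron in which each site lies was not determined.

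The members were spread over the whole range that defined them, with more sites per length towards the terminal exon. Their median distance was 17019 nt, with quartiles at 9937 and 28456 nt. Between 5000 and 10000 nt there were 304 members per 1000 nt of distance. This fell to 199 per 1000 nt between 10000 and 20000 nt, to 118 in the next 10000 nt, to 79.8 after that and to 55.6 between 40000 and 50000 nt. The distance is what chose the members, so these values carry no finding of their own, and the limits cut through a continuous distribution. Nor was the number of genes that extend as far upstream as each distance taken into account. The members just inside the lower limit were in Ftsj3 (5001 nt), 1810013L24Rik (5002 nt) and 4833418N02Rik (5003 nt), and the composite intronic PASs just outside it were in Sh2b3 (4999 nt), Adam21 and Tubgcp3 (both 4993 nt). At the upper limit, Ino80 (49988 nt), Ptprz1 (49980 nt) and Phactr4 (49950 nt) were just inside, while Bahcc1 (50015 nt) and Mier1 (50018 nt) were just outside.

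**Figure D1:**
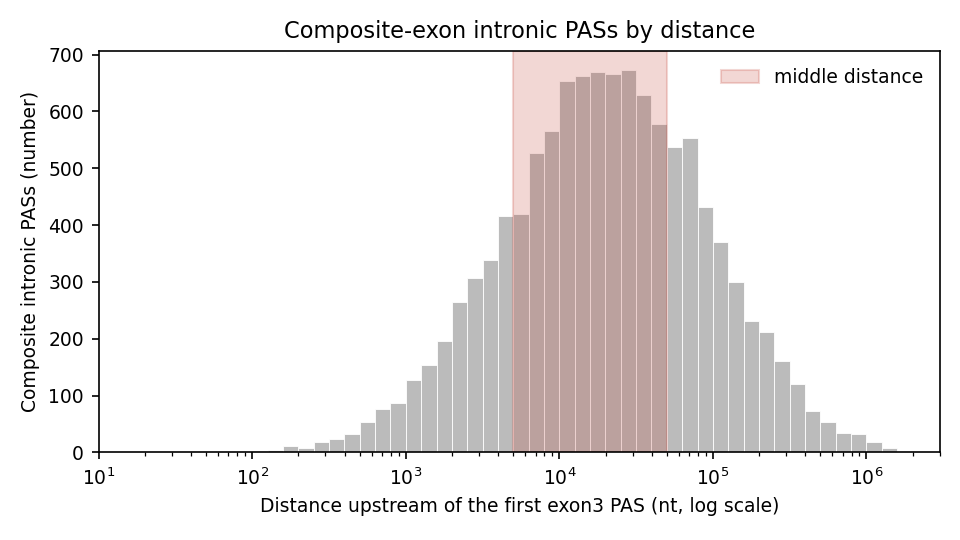
Number of composite intronic PASs (y axis) by distance upstream of the first exon3 PAS of the gene (x axis, nt, log scale with bins of equal width on that scale). The shaded band is the range of the 6043 members, which holds the tallest bins, and the sites continue on both sides of it without a gap.

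Most member genes had a single member, yet most members shared their gene with others. Of the 3074 genes, 1700 had 1 member, 665 had 2, 306 had 3, 190 had 4, 96 had 5 and 117 had 6 or more. The 1374 genes with at least 2 members (44.7%, 42.9 to 46.5) held 4343 members, or 71.9% of all. The 213 genes with at least 5 members (6.93%) held 1335 members, or 22.1%. In the near class, 27.3% (25.1 to 29.6) of genes had at least 2 sites of that class, and in the far class 52.3% (49.5 to 55.2), so the share in the middle class lay between them. These classes cover stretches of unequal length, which the shares do not take into account. From the first to the last member, the median span was 4402 nt in genes with 2 members, 11780 nt in genes with 3 or 4 and 17443 nt in genes with 5 or more.

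**Figure D2:**
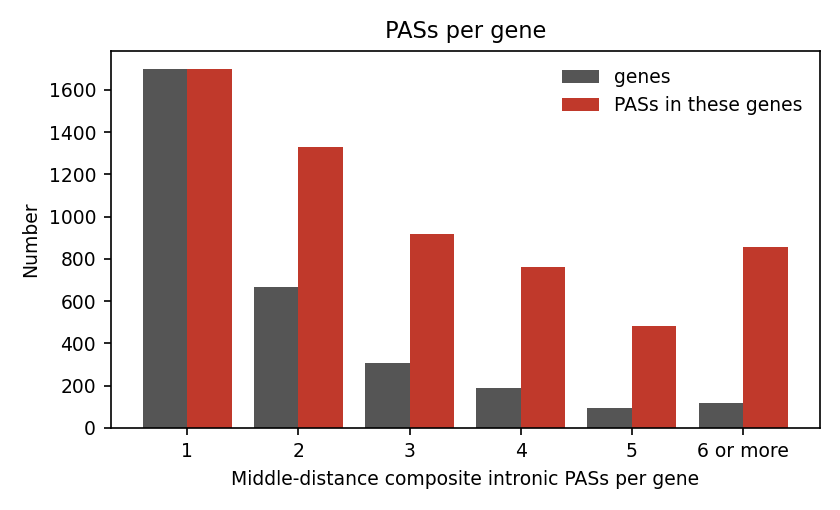
Number of genes (grey) and of PASs in them (red) by the count of middle-distance composite intronic PASs per gene. The tallest pair of bars is at 1 member, with 1700 genes, and the 117 genes with 6 or more members hold 855 PASs.

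Genes with many members, of which some are described here, differed in how their sites were arranged along the gene. Elfn2, which encodes a leucine-rich repeat membrane protein, had 16 members on the minus strand of chromosome 15. Of these, 11 were packed between 9754 nt (position 78514792) and 8966 nt (position 78514004), and each of the 11 had the 10 others within 1000 nt, a number that no member of the class exceeded. The other members of Elfn2 stood apart, at 37895, 35310, 14862, 10839 and 10788 nt.

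Clusters of another form were seen in Ube2v1, a ubiquitin-conjugating enzyme variant that lacks the catalytic cysteine. Its 13 members formed 2 clusters, 5 sites from 9926 to 9508 nt and 8 sites from 7208 to 6796 nt, on the minus strand of chromosome 2, with no member elsewhere in the gene. Rnf170, an endoplasmic reticulum ubiquitin ligase for inositol trisphosphate receptors, had 12 members that were spread more evenly. Of these, 7 lay between 22261 and 11177 nt, with gaps of 702 nt or more. A further 4 lay between 6837 and 6643 nt and the last lay at 6213 nt, with 1 near composite PAS at 3013 nt. Cyp2j9, a cytochrome P450, also had 12 members, while Cdkl3, a cyclin-dependent kinase-like gene, and Lrguk had 11 each. BC088983, Dlec1 and Nhedc2 had 10 members each.

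**Figure D3:**
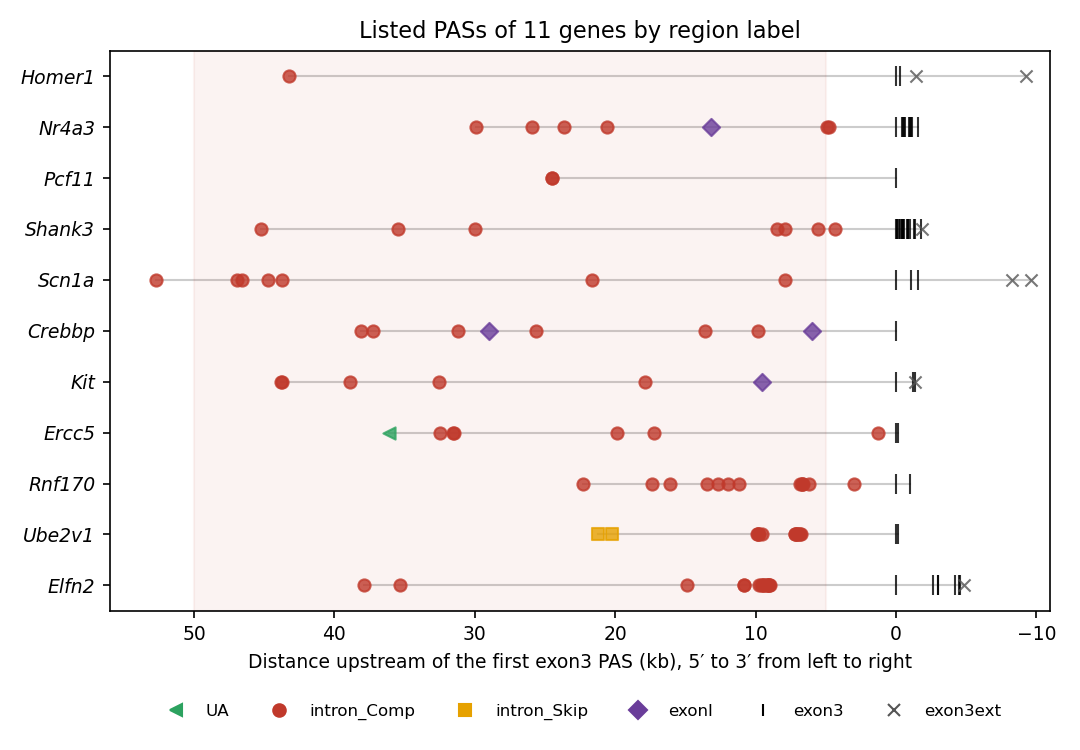
Listed PASs of 11 genes, placed by distance from the first exon3 PAS (x axis, kb, with the 5′ end of the gene at the left) and marked by region label. The shaded band marks the middle distance. PASs of any label further than 55 kb upstream are left out, among them the UA PAS of Kit. Most members of Elfn2 and Ube2v1 are seen in tight groups, where those of Shank3 and Crebbp stand further apart.

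Neighbouring members of the same gene were separated by a median of 2443 nt (quartiles 533 and 7301 nt) over 2969 pairs. The corresponding median was 405 nt over 631 pairs in the near class and 9368 nt over 1967 pairs in the far class. Gaps of at most 100 nt made up 9.06% (8.08 to 10.1) of the pairs of members, against 19.3% (16.4 to 22.6) of near and 4.63% (3.78 to 5.65) of far pairs. Gaps of at most 1000 nt made up 33.1% (31.5 to 34.9) of member pairs. The classes cover stretches of unequal length, and the part of this in the order of the medians was not tested. Counted by site, 1692 members (28.0%) had another member of their gene within 1000 nt, and 555 (9.18%) had at least 2 others.

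The authors merged cleavage positions within 24 nt of each other into 1 PAS, and 4 pairs of members nevertheless lay closer than that limit. The closest pair was in Tgfbr3, the type III receptor of transforming growth factor beta, at positions 107569142 and 107569127 of chromosome 5, 15 nt apart and 32412 and 32397 nt from the terminal exon PAS. Pairs 22 nt apart were found in Cage1 (chromosome 13, positions 38106047 and 38106025), in Fbxw10 (chromosome 11, positions 62678862 and 62678884) and in Ube2v1 (chromosome 2, positions 167440532 and 167440510). Further pairs lay 25 nt apart, among them pairs in 1700034H15Rik, Elfn2 and Rnf170. Sites this close may be counted as 1 site under another clustering rule, and values with close members merged are given in the closing section.

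Along the gene, members were followed more often by a further composite site than by the terminal exon. The next PAS downstream was another composite intronic PAS for 3488 members (57.7%, 56.5 to 59.0), an exon3 PAS for 2214 (36.6%), a skipped-exon PAS for 191 (3.16%) and an exonI PAS for 150 (2.48%). In the other direction, 2342 members (38.8%) were the most upstream PAS listed for their gene when UA sites are left out. In 1031 genes (33.5% of member genes, 31.9 to 35.2) a single member was the only PAS between the gene's start and its terminal exon. No other class of composite site was present in 1923 member genes (62.6%). A further 561 (18.2%) also held near composite PASs, 502 (16.3%) also held far ones and 88 (2.86%) held all 3 classes.

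Genes with members also differed from other genes in the sites that the rule did not use. At least 2 exon3 PASs, which is tandem polyadenylation in the terminal exon, were listed for 63.4% (61.7 to 65.1) of member genes and for 46.0% (45.1 to 46.9) of the 11997 genes without a member. UA PASs, the ends of short antisense transcripts that start at promoters, were listed for 22.3% (20.9 to 23.9) of member genes against 10.7% (10.2 to 11.3). Skipped-exon intronic PASs were listed for 10.9% (9.81 to 12.01) against 4.23% (3.88 to 4.60), exonI PASs for 7.61% (6.73 to 8.60) against 1.43% (1.24 to 1.66), and exon3ext PASs for 16.8% (15.5 to 18.2) against 10.8% (10.3 to 11.4). Each of these 5 kinds of feature was more frequent in member genes, with intervals apart. Gene length, the number of introns and read depth were not taken into account, and their part in these differences was not tested.

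Other genes with composite sites served as a closer comparison. In the 1390 genes that had near or far composite PASs but no member, 21.4% (19.4 to 23.7) had a UA PAS, 10.1% (8.60 to 11.8) a skipped-exon PAS and 15.4% (13.6 to 17.4) an exon3ext PAS, and these intervals overlap those of the member genes. For skipped-exon PASs this set pools unlike classes, since 7.08% (5.88 to 8.50) of all genes with near sites and 19.2% (17.1 to 21.6) of all genes with far sites had one, with member genes in between. These latter sets share genes with the member genes. The intervals did not overlap for tandem exon3 PASs, at 56.5% (53.9 to 59.1), nor for exonI PASs, at 4.82% (3.81 to 6.08), both lower than in member genes. Among all genes with near sites, however, tandem exon3 PASs were listed for 59.4% and exonI PASs for 8.09%. Among all genes with far sites, the shares were 64.0% and 7.05%. The interval of each of these shares overlaps that of the member genes, with which both sets share genes. These features are therefore not shown to be particular to genes with members. The stretch between the first and last exon3 PAS had a median of 790 nt in member genes with at least 2 such sites. In the comparison set of 1390 genes, those with at least 2 such sites had a median of 837 nt. The quartiles overlapped widely (255 to 1760 and 298 to 1782 nt). These are counts over genes of 1 list, without replicates, and no test of the differences was made.

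Upstream antisense sites gave a rough mark of the promoter in part of the genes, since they are made from the opposite strand just upstream of the gene's start. All 3339 UA entries of usable genes were indeed named on the strand opposite to their gene. Measured from the UA PAS nearest to the gene, 1530 members in 686 genes lay at a median of 24208 nt (quartiles 8318 and 57429 nt) downstream. A further 2 members and 4 far sites lay at or upstream of that UA PAS and were left out of these values. On the way from the UA PAS to the first exon3 PAS, the median member was at 57.9% (quartiles 32.5 and 76.8%), the median near site at 86.0% and the median far site at 26.7%. The first 25% of the way held 18.7% (16.8 to 20.7) of the members and the last 25% held 27.8% (25.6 to 30.1). Position on the way is made from the same distance that defines the classes, so the contrast between them is set in part by the limits and is given as a description. Unlike the near sites, which crowded the end of the way (70.7% in its last 25%), and the far sites, which crowded its start (47.9% in its first 25%), the members had between 6.21% and 13.7% of their number in each step of 10%. This profile pools genes of unequal length. The median position was 31.8% where UA and first exon3 PAS were at most 20000 nt apart, 43.7% between 20000 and 40000 nt, 56.2% between 40000 and 80000 nt and 80.3% in longer genes.

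**Figure D4:**
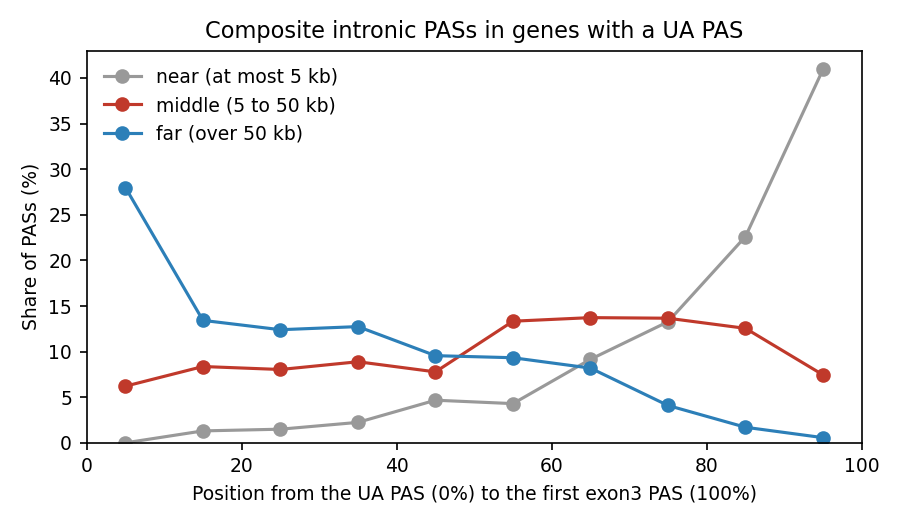
Share of composite intronic PASs (y axis, %) by position on the way from the UA PAS, which marks the gene's start, to the first exon3 PAS (x axis, %, in steps of 10), for genes with a UA PAS. Near sites rise to 40.9% in the last step and far sites reach 28.0% in the first step, while the 1530 members, pooled over genes of all lengths, show no step above 13.7%.

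Close to the promoter, members were few. Only 70 members (4.58%, 3.64 to 5.74) lay within 2000 nt of the UA PAS, a share like that of the far sites (4.32%, 3.17 to 5.88) and under that of the near sites (8.04%, 6.02 to 10.7). The share followed the length of the gene. It was 17.5% (13.1 to 23.0) of 223 members where UA and first exon3 PAS were at most 20000 nt apart, 5.74% of 401 members between 20000 and 40000 nt, and 1.70% of 470 members between 40000 and 80000 nt. In longer genes it was 0 of 436 members, a count that the distance limits fix in advance. There, the UA PAS lies over 80000 nt from the first exon3 PAS, and members lie at most 50000 nt from it. The limits also set part of the other shares.

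Sites of other genes were rarely close to members. A PAS of another gene lay within 1000 nt on the same strand for 34 members (0.563%, 0.403 to 0.785) and on the opposite strand for 21 (0.348%, 0.227 to 0.531). In the near class these shares were 1.66% and 4.21%. UA PASs of other genes were left out of these counts. The same site listed under another gene symbol was counted as a PAS of that gene. For 28 members the same site was also listed under another gene symbol, so the gene that the transcript belongs to is uncertain there. Examples are 6 sites listed under both Rmnd1 and Gm5512, and 3 sites that were members of Gm10516 and UA sites of Rcor3. Other pairs, such as Iqcj-schip1 with Schip1, are overlapping gene models of 1 locus.

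Functional lists of genes were then compared with the share of 20.4% over all genes with an exon3 PAS. Of 31 lists, 25 had intervals that held this share, 3 lay wholly above it and 3 wholly below. With 31 intervals at the 95% level, some are expected to miss the overall share by counting error alone, and gene length was not taken into account. The lists above were DNA repair, the kinesins and the ubiquitin-specific peptidases. The lists below were the ribosomal proteins, the Tmem genes and the astrocyte markers.

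**Figure D5:**
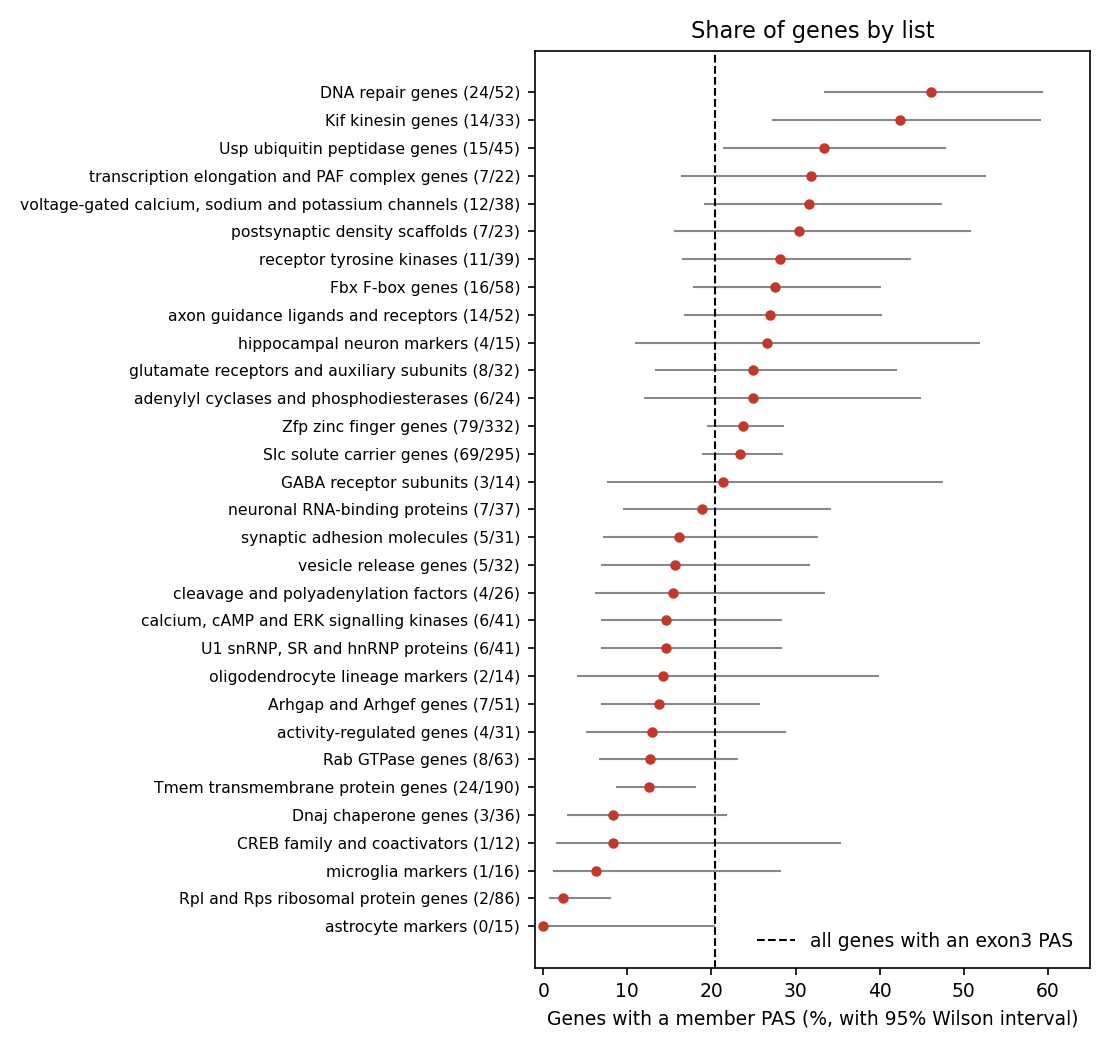
Share of the genes of each list that have a member (x axis, %, points with 95% Wilson intervals), with the number of genes with a member and the number with an exon3 PAS in brackets. The dashed line is the 20.4% of all genes with an exon3 PAS, and the intervals of DNA repair, Kif and Usp genes lie to the right of it.

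Among 52 DNA repair genes with an exon3 PAS, 24 had a member (46.2%, 33.3 to 59.5), with 64 members in all. Of the 30 repair genes with any composite intronic PAS upstream, 24 (80.0%, 62.7 to 90.5) had one at middle distance, and over all such genes this share was 68.9% (67.5 to 70.2), inside the interval. Rev3l, the catalytic subunit of the translesion polymerase zeta, had 8 members on chromosome 10 from 42333 nt (position 39552193) to 20619 nt (position 39573907), together with 8 far composite sites and 3 skipped-exon sites. Rev1, its partner in translesion synthesis, had 6 members, of which 5 fell between 34832 and 33439 nt and the last at 10207 nt. Fancc, a component of the Fanconi anaemia core complex, had 7 members from 32221 to 7302 nt, and Ercc5, the endonuclease that cuts 3′ of the lesion in nucleotide excision repair, had 5 from 32500 to 17213 nt. The damage-signalling kinases Atr and Prkdc, the homologous recombination genes Brca1 and Brca2, and the helicases Blm and Wrn were also among the 24.

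Kinesins, the microtubule motors, had a member in 14 of 33 genes (42.4%, 27.2 to 59.2), with 29 members in all. Near composite sites were in 6 of the 33 and far ones in 6, against 9.84% and 7.81% of all genes. Of the 17 kinesin genes with any composite site upstream, 14 (82.4%, 59.0 to 93.8) had a member, an interval that holds the 68.9% over all such genes. Kif7, a regulator of hedgehog signalling in cilia, had 7 of these, all between 14959 nt (position 86858224) and 11422 nt (position 86854687) on chromosome 7. The 14 included mitotic motors such as Kif11, Kif18a and Kif23 as well as Kif5b, which carries cargo along axons. Ubiquitin-specific peptidases had a member in 15 of 45 genes (33.3%, 21.4 to 47.9), with 48 members in all, and in 15 of the 18 (83.3%, 60.8 to 94.2) with any composite site upstream. Usp53 had 7, from 34202 to 12370 nt on chromosome 3, and a further 2 near composite PASs at 1370 and 1065 nt.

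At the other end, the ribosomal protein list had a member in 2 of 86 genes (2.33%). Both were the kinase genes Rps6ka5 and Rps6kb1, which share only the start of the symbol with the ribosomal proteins. Without the Rps6k genes the count was 0 of 78, which allows a share of up to 3.85% (3 counts of the total), while 12 of the 78 had a near composite intronic PAS. Ribosomal protein genes are known to be short, and the part of gene length in this count was not tested. Genes named Tmem had a member in 24 of 190 (12.6%), and astrocyte markers in 0 of 15, which allows a share of up to 20% by the same rule. The Wilson interval of the astrocyte markers ended at 20.4%, below the share over all genes only in later decimals. Oligodendrocyte markers had 2 of 14 (Mag and Pdgfra), microglia markers 1 of 16 and hippocampal neuron markers 4 of 15 (Prox1, Wfs1, Gad1 and Syt1).

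Lists of synaptic signalling genes ranged from 15.6% to 31.6% of genes with a member, and each interval held the 20.4%. Voltage-gated channels had them in 12 of 38 genes (31.6%, 19.1 to 47.5), with 34 members in all. Scn1a, a sodium channel subunit prominent in inhibitory interneurons, had 6 on chromosome 2, of which 4 lay between 46906 and 43770 nt and the others at 21684 and 7925 nt. Cacna1a, the pore of P/Q-type calcium channels at presynaptic terminals, had 6 from 42992 to 24840 nt, and Cacna1e, the R-type pore, had 6 from 45390 to 11830 nt. All 3 of these genes also held far composite sites, between 2 and 3 each.

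Postsynaptic scaffolds had a member in 7 of 23 genes (30.4%). Shank3, a master scaffold of excitatory synapses, had 6 on the plus strand of chromosome 15, at 45250, 35462, 30021, 8499, 7921 and 5584 nt, with a near composite site at 4312 nt and 17 exon3 PASs. Homer1, which binds metabotropic glutamate receptors and Shank proteins, had 1 member at position 94130415 of chromosome 13, 43225 nt upstream of its first exon3 PAS. The activity-induced short form Homer1a is known to end inside an intron of this gene, and whether the listed site is its end was not determined here. Homer1 held no other composite, skipped-exon or internal-exon PAS, with 2 exon3 and 2 exon3ext PASs as its only further sites.

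Glutamate receptors and their auxiliary subunits had a member in 8 of 32 genes (25%). Gria3, an AMPA receptor subunit on chromosome X, had 4, at 48555 nt and in a group at 22623, 22507 and 22325 nt that was followed by a skipped-exon PAS at 22190 nt. Grin2b, an NMDA receptor subunit, had 2, at 18910 and 8692 nt, besides 4 far composite sites. Cacng2, the AMPA receptor auxiliary protein stargazin, also had 2, at 17733 and 14118 nt. More genes of this list, 13, held far composite sites. Of its 15 genes with any composite site upstream, 53.3% (30.1 to 75.2) had a member, an interval that includes the 68.9% over all such genes. GABA receptor subunits had a member in 3 of 14 genes, synaptic adhesion molecules in 5 of 31 and vesicle release genes in 5 of 32.

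Receptor tyrosine kinases had members in 11 of 39 genes (28.2%, 16.5 to 43.8). Truncated, soluble forms of such receptors are a known product of intronic polyadenylation. Kit, the stem cell factor receptor, had 5 members at 43810, 43706, 38903, 32549 and 17856 nt on chromosome 5, and Egfr, the receptor of epidermal growth factor, had 4 at 24953, 24778, 22816 and 18063 nt on chromosome 11. The others were Kdr, Pdgfra, Epha3, Epha5, Epha7, Ephb3, Alk, Ryk and Ror1. Axon guidance ligands and receptors had members in 14 of 52 genes (26.9%), Slit2, Robo2, Ntn1 and Sema3a among them.

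Activity-regulated genes, which include transcription factors and synaptic effectors, had a member in 4 of 31 (12.9%, 5.13 to 28.9), with 7 members in all. Nr4a3, an orphan nuclear receptor of the immediate early response, had 4 of the 7, at 29894, 25942, 23631 and 20570 nt on chromosome 4, with 10 exon3 PASs. Its relative Nr4a2 had 1 at 6475 nt (position 56966849 of chromosome 2), which was 744 nt downstream of the nearest of 3 UA PASs. Inhba, which encodes the activin beta A subunit, had 1 at 6217 nt, and Homer1 was the other gene of this list. In the CREB family and its coactivators 1 of 12 genes had members. This was Crebbp, the histone acetyltransferase that binds phosphorylated CREB, with 6 members from 38138 nt (position 4123998) to 9801 nt (position 4095661) on chromosome 16 and 3 far sites further upstream. Creb1 itself had 1 composite intronic PAS, 67802 nt upstream and thus outside the class.

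The machinery that makes or restrains such transcripts was also represented. Cleavage and polyadenylation factors had members in 4 of 26 genes (15.4%, 6.15 to 33.5). Pcf11, a subunit of cleavage factor II, had 2 that lay 43 nt apart at 24515 and 24472 nt on chromosome 7, and these were its only PASs beside 1 exon3 site. Nudt21, the small subunit of cleavage factor I, had 1 at 7814 nt, Papola, the canonical poly(A) polymerase, had 1 at 27156 nt, and Rbbp6 had 1 at 23537 nt. Wdr33, the subunit that reads the poly(A) signal, had no member and 2 far composite sites. Among U1 snRNP, SR and hnRNP genes 6 of 41 had a member (Snrpc, Luc7l3, Srsf4, Hnrnph2, Hnrnpk and Hnrnpr).

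Transcription elongation genes had a member in 7 of 22 (31.8%, 16.4 to 52.7), with 23 members in all. Xrn2, the nuclear exonuclease that degrades the downstream RNA after cleavage, had 7 from 47520 to 8616 nt on chromosome 2, as well as 3 UA PASs. Cdc73, a subunit of the PAF complex, had 6 that all lay between 47158 and 38392 nt on chromosome 1. The elongation kinase gene Cdk13 had 3, at 48772, 26706 and 17421 nt, and Ccnt1, the cyclin of P-TEFb, had 3, at 23209, 20314 and 7655 nt. Neuronal RNA-binding proteins had members in 7 of 37 genes, Elavl3, Nova1 and Cpeb3 among them.

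Calcium, cAMP and ERK signalling kinases had a member in 6 of 41 genes (14.6%). Adenylyl cyclases together with phosphodiesterases had members in 6 of 24 genes, namely Adcy6, Adcy7, Adcy8, Adcy9, Pde1c and Pde3b. The large gene families named Zfp and Slc had members in 79 of 332 (23.8%) and 69 of 295 genes (23.4%). F-box genes had them in 16 of 58, Rab GTPases in 8 of 63, genes named Arhgap or Arhgef in 7 of 51 and Dnaj chaperones in 3 of 36.

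Some member genes combined many kinds of ends. Vprbp, listed in current annotation as Dcaf1, a substrate receptor of a CUL4 ubiquitin ligase, carried 7 different region labels, with 2 members at 25185 and 19808 nt, 4 skipped-exon PASs and 7 exon3 PASs. Bai1, an adhesion receptor listed in current annotation as Adgrb1, carried 6 labels and had 5 members from 45417 to 13395 nt on chromosome 15 but only 1 exon3 PAS.

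Members were listed on all autosomes and on both sex chromosomes. On the autosomes, 20.6% (19.9 to 21.2) of 14561 genes with an exon3 PAS had a member, and on chromosome X 77 of 506 (15.2%, 12.4 to 18.6), an interval below that of the autosomes. Among autosomes the share ran from 16.3% (13.6 to 19.4) on chromosome 15 to 27.8% (24.1 to 31.8) on chromosome 13, and on 8 of the chromosomes (1, 5, 7, 9, 11, 13, 15 and X) the interval did not hold the overall 20.4%. The part of gene length in these shares was not tested.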

How the data were processed

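RNA ends of 12 samples of hippocampal slices (4 groups of 3) were sequenced by 3′READS. Per the labels, reads were aligned with Bowtie2 to mm9. Per the study's methods, reads with unaligned T at the start defined PASs, and sites within 24 nt were clustered. The authors deposited 1 list of sites for all samples. Its position column, given here as a genome position (whether counted from 0 or 1 is not given in the sources used here), was used with its gene, strand and region label. The 12 deposited columns of read counts were not used, since their names match no sample label, and no test between groups was run. Of 13408 composite intronic entries, 12 lay in genes on more than 1 chromosome or strand, 1943 in genes without an exon3 PAS, and 152 at or downstream of the first exon3 PAS. Tools were numpy 2.4.6 and pandas 2.3.3 under Python 3.11.15, which gave the distances, medians and Wilson intervals (95%), and the scripts' rules were checked on simulated site lists. Sets of sites and genes were compared by these intervals.

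The members and the 31 gene lists were chosen with earlier results of these data known. Genes named were, of each list, up to 4 with the most members, the 10 with the most members of all, the 5 closest pairs, the 5 densest members, the 5 genes with the most labels, sites next to the limits, and Homer1, Wdr33, Creb1 and Notch1. Some genes that this rule names are not reported here. Further genes are named without their values to say which genes make up a count. Current names came from Ensembl and RefSeq: 2740 of 3074 symbols matched Ensembl names, 311 only RefSeq symbols or synonyms, and 23 neither. Notch1 had no composite intronic PAS in the list.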

Additional observations from a re-analysis of the deposited data

How the results depend on the processing

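The number of members ranged from 5217 to 6319 and the number of member genes from 2777 to 3178 under all alternatives run, against 6043 and 3074, each within 1.5 times. These were distance to the last exon3 PAS, sites listed under 1 gene only, members within 100 nt merged, no placeholder symbols, exon53 sites counted as terminal, and limits of 2500 and 25000 or 10000 and 100000 nt. Shares and medians were not run with exon53 sites counted as terminal or with other limits. Under the remaining alternatives they moved by more than their interval in 2 cases. The share of members among composite sites upstream was 55.4% with the distance taken to the last exon3 PAS, against 53.5%. The median spacing of neighbouring members was 3123 nt when members within 100 nt were merged, against 2443 nt. The other shares and medians moved by less than that. Taking the UA PAS farthest upstream as the start, chosen after seeing the data, gave a median position of 58.8% against 57.9%, and the Rps6k genes were likewise separated from the ribosomal list after seeing the data. No paired analysis was possible because the count columns carry no name that matches a sample. For the same reason the planned comparison of cLTP with control, with its replicate block, left-out replicates, other size factors and filter, was not run. The poly(A) signal windows and shifted coordinates were not run, since they need an mm9 genome. Without the read counts, which were not used here, the list cannot tell frequent from rare ends, and longer genes have more room for members.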
